A study of Mus musculus with 20 samples.

Results

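Tropomyosins and troponins are the regulatory proteins of the thin filament, and their transcripts were followed here through 10 genes in mouse heart ventricle, Tpm1, Tpm2, Tpm3, Tpm4, Tnnt1, Tnnt2, Tnnt3, Tnni1, Tnni3 and Tnnc1. All probe sets of the Affymetrix array linked to 1 of these genes alone were taken, whatever their values. That gave 13 probe sets of the 12422 on the array that are not controls, and all 10 genes had at least 1. Of the 13, 11 probe sets for 9 genes were bright enough to be tested, and 2 were not, the only Tnnt3 probe set (92885_at) and the dimmer Tpm2 probe set (161320_r_at). A further probe set was linked to Tpm4 together with another gene and is counted for neither.

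The study asked what the tetracycline transactivator (tTA), a bacterial repressor fused to a viral activation domain, does in the heart. Doxycycline (Doxy) keeps tTA from binding its operator sequences. The groups were tTA + Doxy (5 arrays), tTA (8 arrays), FVBN + Doxy (4 arrays) and FVBN control (2 arrays), the FVBN groups being the wild type of the strain without the transgene. The labels' keywords name the alpha MHC promoter, the promoter of the cardiac myosin gene Myh6, which is active in cardiac muscle cells. All arrays came from ventricle, and the labels give no dose, duration, age, sex or number of tTA lines, and do not say that each array is a separate animal, so p-values measure the spread between these arrays. The title of each array with a group carries a number whose meaning the labels do not give. These are 7399 to 7488 in tTA + Doxy, and 7288 to 7311, 9310 and 9322 in tTA. They are 8337 to 8341 in FVBN + Doxy, and 8177 and 8182 in FVBN control. The numbers of different groups stand in separate blocks, so whatever they stand for cannot be told apart from group.

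In striated muscle, tropomyosin dimers lie end to end along actin and cover the sites to which myosin binds. The troponin complex moves them: troponin C binds calcium, troponin I holds the filament off at rest and troponin T ties the complex to tropomyosin. Troponin T and troponin I each have cardiac, slow skeletal and fast skeletal genes, while cardiac and slow muscle share a single troponin C gene and fast muscle uses another. The developing heart uses slow skeletal troponin I and more beta-tropomyosin than the adult heart, and adult mouse ventricle is built mainly with alpha-tropomyosin (Tpm1), cardiac troponin T (Tnnt2), cardiac troponin I (Tnni3) and the shared troponin C (Tnnc1).

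Median deposited intensity lay between 60.74 and 62.45 on the 20 arrays, and log2 values of arrays in the same group correlated at Pearson r of 0.9925 to 0.9981 across probe sets, which are not independent replicates. The labelled tissue was checked against ventricular cardiomyocyte genes: over the 19 arrays with a group, Myl2 lay between 5404.5 and 6316.9, Myh6 between 3720.5 and 4752.9 and Actc1 between 3272.4 and 4446.8 in normalised intensity. Among atrial genes, Myl7 lay between 30.8 and 52.6, Sln between 41.0 and 53.0, Myl4 between 69.0 and 93.8 and Nppa between 208.9 and 417.2. The Z-disc gene Actn2 of cardiac muscle lay between 45.5 and 54.6, so a dim probe set is weak evidence that a tissue is absent. RNA integrity was read from beta-actin, as its 3' control probe set over its 5' one on the log2 scale. This ratio was 0.27 to 0.42 in tTA + Doxy and 0.15 to 0.44 in tTA, against 0.41 to 0.60 in FVBN + Doxy and 0.54 to 0.55 in FVBN control. It moved with genotype, and every fit was therefore repeated with it as a covariate. One further array, titled without a number or treatment, had no group and entered no comparison.

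Tpm2, the gene of beta-tropomyosin, was the member that differed most between tTA and FVBN hearts. At its brighter probe set (100605_at) the normalised intensity was 235.9, 265.7, 242.3, 257.9 and 242.3 on the 5 tTA + Doxy arrays. On the 8 tTA arrays it ran from 237.4 to 369.2 with a median of 314.6. It was 89.6, 100.8, 139.6 and 84.7 on the 4 FVBN + Doxy arrays, and 91.5 and 92.9 on the 2 FVBN control arrays. Every tTA array with or without Doxy thus stood above every FVBN array, and FVBN + Doxy array 8340 stood above the other FVBN arrays. Without Doxy, Tpm2 rose 3.31-fold in tTA over FVBN control (log2 fold change 1.73 ± 0.16 SE, n = 8 and 2, limma adjusted p = 8.55e-06, in 8 of 8 tTA arrays). With Doxy it rose 2.45-fold in tTA + Doxy over FVBN + Doxy (1.29 ± 0.14 SE, n = 5 and 4, limma adjusted p = 4.71e-05, in 5 of 5). The call held in both comparisons when the actin ratio entered the fit (over all alternatives the limma adjusted p was at most 0.000847 with Doxy and 0.00171 without) and with each array left out in turn. In bulk ventricle a change in the number of cells of a type and in RNA per cell cannot be told apart. The dimmer Tpm2 probe set (161320_r_at) lay between 24.2 and 41.3 over the 19 arrays, with log2 differences of -0.08 under Doxy and -0.06 without it. It was too dim to be tested and did not show the rise, so the Tpm2 result rests on 100605_at alone.

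The RefSeq promoter window of Tpm2, from 250 bases before to 50 after the annotated start, is shown because its transcript differed most, with that of Tpm1, the adult cardiac partner whose transcript did not pass, beside it (build GRCm38.p6, both on the minus strand, Tpm2 at chr4:43523505-43523804 and Tpm1 at chr9:67049164-67049463). Both run 5′ to 3′ in the direction of transcription, and capitals mark each E-box, a match to CANNTG on either strand, the core bound by bHLH factors of muscle and other cells. The Tpm1 window lies wholly within the annotated gene span (67022590 to 67049672 on chromosome 9), so its start is not the outermost one.
Tpm2: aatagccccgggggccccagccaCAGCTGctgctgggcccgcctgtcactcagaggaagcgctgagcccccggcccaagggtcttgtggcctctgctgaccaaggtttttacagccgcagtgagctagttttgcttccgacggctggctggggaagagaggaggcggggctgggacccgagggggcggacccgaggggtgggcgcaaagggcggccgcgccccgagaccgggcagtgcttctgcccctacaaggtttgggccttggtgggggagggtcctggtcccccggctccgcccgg
Tpm1: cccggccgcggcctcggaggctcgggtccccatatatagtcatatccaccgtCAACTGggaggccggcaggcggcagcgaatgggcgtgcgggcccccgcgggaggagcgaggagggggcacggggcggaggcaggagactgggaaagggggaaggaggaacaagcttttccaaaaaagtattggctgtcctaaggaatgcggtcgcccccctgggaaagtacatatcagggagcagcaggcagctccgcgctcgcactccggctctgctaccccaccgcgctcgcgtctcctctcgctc
Each window held 1 E-box, as did 72.31% of the 32851 promoter windows of the same length with at least 1. Neither held a CArG box, the site of serum response factor, which 1.629% of all windows hold, nor an MEF2 site (3.187%). The GC box GGGCGG was matched 3 times in the Tpm2 window and 1 time in the Tpm1 window, and 35.66% of all windows hold it. The M-CAT letters CATTCC were matched 1 time in the Tpm1 window and 0 times in the Tpm2 window, and 14.66% of all windows hold them. These matches describe the letters alone.

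The other tropomyosin genes did not pass in any comparison. Tpm1 at its only probe set (160532_at) had 82.5, 72.7, 65.7, 75.6 and 71.2 on the tTA + Doxy arrays and 65.2 to 82.4, with a median of 71.4, on the tTA arrays. It had 77.7, 77.5, 77.5 and 74.6 in FVBN + Doxy and 79.5 and 83.6 in FVBN control. The groups overlapped between genotypes, and the log2 differences were -0.07 (95% interval -0.20 to 0.07) for tTA + Doxy against FVBN + Doxy and -0.18 (-0.34 to -0.02, limma adjusted p = 0.219) for tTA against FVBN control. Although Tpm1 is the main tropomyosin of adult ventricle, its probe set stood at the 56.0th percentile of all probe set means, in the lower part of those tested. Tpm3, which encodes a tropomyosin of slow skeletal muscle and of the cytoskeleton, had 2 probe sets. At 93266_at the log2 difference was -0.06 (-0.19 to 0.07) under Doxy and 0.12 (-0.03 to 0.27) without, and at 93265_at -0.05 (-0.18 to 0.09) and -0.03 (-0.19 to 0.13). These intervals leave no room for a change of the size seen at Tpm2.

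Tpm4, a tropomyosin of the cytoskeleton in non-muscle and smooth muscle cells, was the one tropomyosin besides Tpm2 with an interval that excluded 0 under Doxy. At the probe set linked to Tpm4 alone (95542_at) it had 432.1, 466.0, 372.9, 393.0 and 412.6 in tTA + Doxy and 325.6 to 466.5 with a median of 402.2 in tTA. It had 531.7, 441.4, 490.4 and 497.9 in FVBN + Doxy and 397.1 and 516.1 in FVBN control. The groups overlapped in both comparisons. The log2 difference was -0.24 (-0.44 to -0.04) for tTA + Doxy against FVBN + Doxy and -0.21 (-0.44 to 0.03) for tTA against FVBN control, with limma adjusted p = 0.151 and adjusted p = 0.38, and neither passed.

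**Figure D1:**
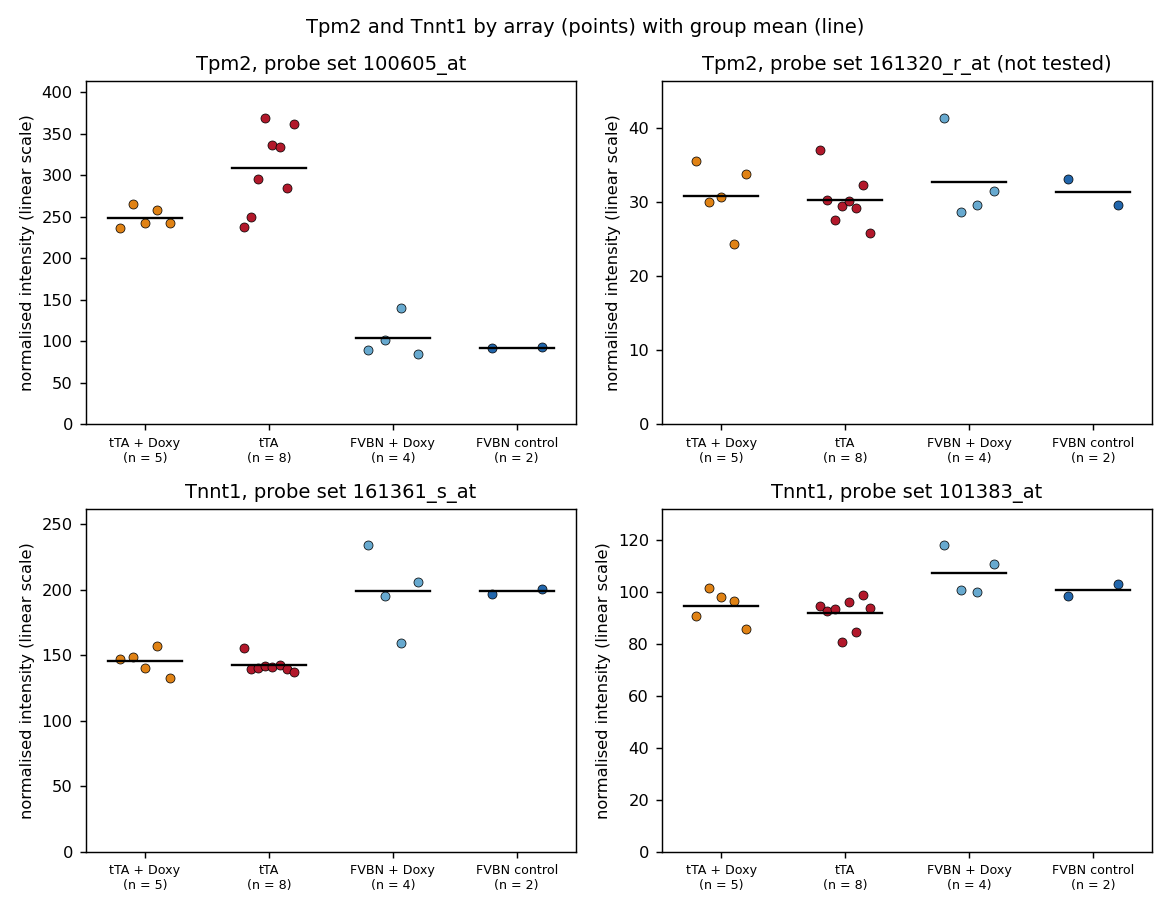
Normalised intensity (linear scale, from 0) of both Tpm2 and both Tnnt1 probe sets on each of the 19 arrays, by group, with the group mean as a line. Tpm2 100605_at lies at 235.9 or above on all tTA arrays and at 139.6 or below on all FVBN arrays, while Tnnt1 161361_s_at lies at 157.4 or below on all tTA arrays and at 159.8 or above on all FVBN arrays.

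Of the troponin T genes, Tnnt1, the slow skeletal form, was lower in tTA hearts. At probe set 161361_s_at the normalised intensity was 146.9, 149.1, 140.7, 157.4 and 132.6 on the tTA + Doxy arrays. The 8 tTA arrays ran from 137.6 to 155.3 with a median of 141.0. The FVBN + Doxy arrays read 233.9, 195.6, 159.8 and 205.7, and the FVBN control arrays 197.0 and 200.8. Neither genotype comparison overlapped. At this probe set FVBN + Doxy array 8340, the FVBN array with the most Tpm2, had the least Tnnt1 among FVBN arrays and came within a few units of tTA + Doxy array 7486. At the other Tnnt1 probe set (101383_at) the lowest FVBN array was FVBN control array 8177 at 98.6, and array 8340 read 100.2. Tnnt1 fell under Doxy (log2 fold change -0.44 ± 0.07 SE, n = 5 and 4, 1.36-fold lower, limma adjusted p = 0.000875, in 5 of 5 tTA + Doxy arrays). It also fell without Doxy (-0.48 ± 0.09 SE, n = 8 and 2, 1.40-fold lower, limma adjusted p = 0.00211, in 8 of 8 tTA arrays). The second call ended without FVBN control array 8177 (-0.50, adjusted p = 0.0516), without FVBN control array 8182 (-0.47, adjusted p = 0.0607) and when the actin ratio entered the fit (-0.48, adjusted p = 0.0641). The call under Doxy held in each of these and in all other alternatives run. The FVBN control arrays are not part of the comparison under Doxy, so leaving them out hardly put that call to the test.

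The other Tnnt1 probe set (101383_at) differed in the same direction by less and did not pass. It read 90.9, 101.6, 98.2, 96.5 and 85.8 in tTA + Doxy and 80.9 to 98.9 in tTA, against 118.0, 100.9, 100.2 and 110.7 in FVBN + Doxy and 98.6 and 103.2 in FVBN control. All 5 tTA + Doxy arrays lay below the FVBN + Doxy mean and all 8 tTA arrays below the FVBN control mean, with overlap in both. The log2 differences were -0.18 (95% interval -0.31 to -0.05, limma adjusted p = 0.0903) and -0.14 (-0.29 to 0.02, limma adjusted p = 0.365). The suffix of 161361_s_at marks, in Affymetrix naming, a probe set whose probes can match more than 1 transcript, so how far its signal comes from Tnnt1 alone cannot be settled from these values. In the RefSeq gene table Tnnt1 stands next to Tnni3, the cardiac troponin I gene, on chromosome 7 with no protein-coding gene between them, and Tnni3 passed in no comparison.

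The RefSeq promoter window of Tnnt1 is shown for the member that fell (build GRCm38.p6, minus strand, chr7:4515926-4516225), printed 5′ to 3′ in the direction of transcription with each E-box (CANNTG) in capitals.
Tnnt1: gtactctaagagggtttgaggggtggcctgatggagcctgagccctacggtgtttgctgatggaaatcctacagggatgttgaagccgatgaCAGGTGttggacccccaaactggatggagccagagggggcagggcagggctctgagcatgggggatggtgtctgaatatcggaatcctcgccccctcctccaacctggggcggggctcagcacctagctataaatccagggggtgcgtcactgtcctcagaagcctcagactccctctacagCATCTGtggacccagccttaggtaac
It held 2 E-boxes, a TATA box (TATAAA, in 13.62% of all windows) that begins 30 bases before the annotated start, and a single GC box. The Tpm2 and Tpm1 windows held no TATAAA match. Of the 10 genes, 9 had a window in the table, and 0 of these 9 held a CArG box or an MEF2 site.

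Cardiac troponin T, Tnnt2, passed in no comparison. Its probe set (100593_at) read 3005.6, 3205.9, 3567.5, 3531.9 and 3335.1 in tTA + Doxy and 2765.0 to 3475.6 with a median of 3172.7 in tTA, against 3069.8, 3335.1, 3272.4 and 2880.9 in FVBN + Doxy and 3205.9 and 3475.6 in FVBN control. The groups overlapped throughout, with log2 differences of 0.08 (95% interval -0.05 to 0.22) under Doxy and -0.08 (-0.24 to 0.08) without. Fast skeletal troponin T, Tnnt3, was at the limit of the measurement: its normalised values lay between 14.4 and 16.8, and 7 of 19 were at the floor of 14.37, so no order can be read from them.

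Troponin I and troponin C did not pass in any comparison. Cardiac troponin I, Tnni3 (100921_at), read 4752.9, 4752.9, 4934.6, 5196.3 and 4752.9 in tTA + Doxy and 4549.6 to 5036.9 with a median of 4835.5 in tTA, against 5036.9, 4752.9, 4642.9 and 4752.9 in FVBN + Doxy and 4642.9 and 4752.9 in FVBN control. Repeated values arise because quantile normalisation gives each rank 1 value and this probe set was among the brightest on every array, which left 7 different values on 19 arrays, and the deposited intensities ran from 4468.3 to 5280.7. Its log2 difference was 0.02 (95% interval -0.06 to 0.11) under Doxy and 0.04 (-0.06 to 0.14) without. Troponin C, Tnnc1 (101063_at), lay between 3531.9 and 4146.3 over all arrays, with differences of -0.05 (-0.16 to 0.05) and -0.07 (-0.19 to 0.05). It had 9 different normalised values. Without further normalisation of the deposited intensities the difference of Tnnc1 was -0.02 under Doxy and -0.13 without, and those of Tnnt2 were 0.06 and -0.16, and none of these passed.

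Tnni1, the slow skeletal troponin I that the fetal heart uses, did not pass between tTA and FVBN hearts. Its probe set (98561_at) read 176.7, 200.2, 182.9, 181.7 and 185.1 in tTA + Doxy and 172.1 to 204.5 with a median of 194.8 in tTA, against 215.5, 181.7, 194.5 and 199.8 in FVBN + Doxy and 170.7 and 187.5 in FVBN control. The log2 difference was -0.09 (95% interval -0.21 to 0.02) under Doxy and 0.11 (-0.03 to 0.25) without, and neither passed.

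**Figure D2:**
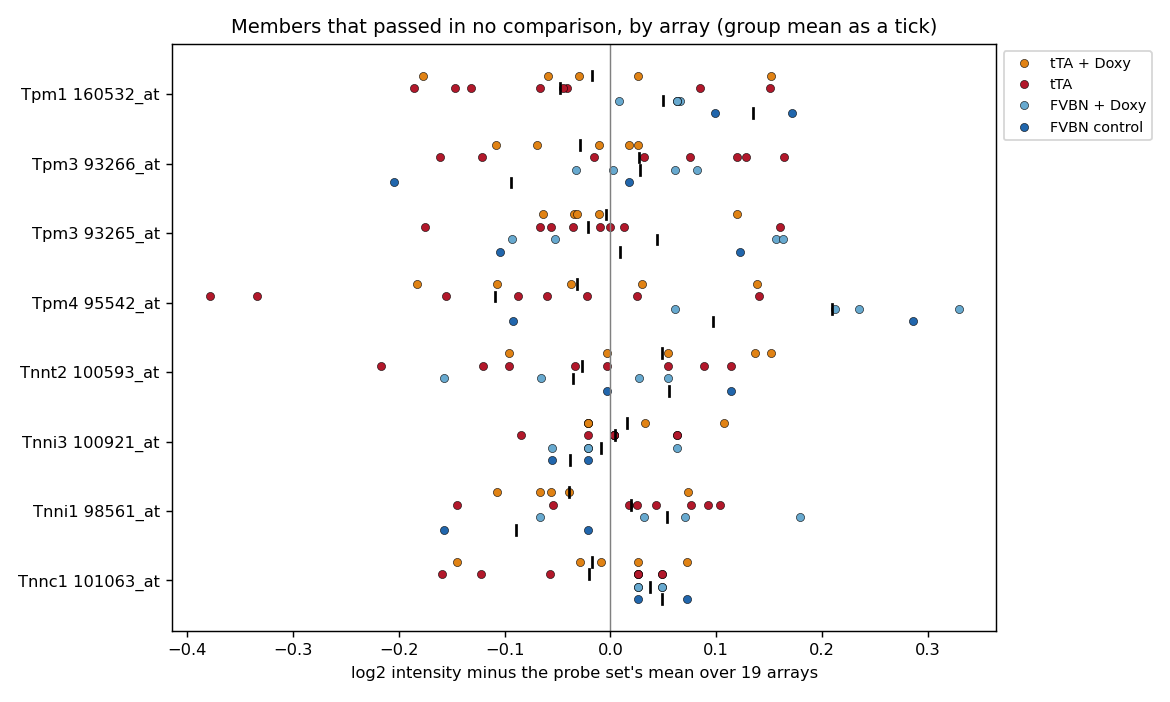
Log2 intensity of the 8 tested probe sets of members other than Tpm2 and Tnnt1 on each array, minus the probe set's mean over the 19 arrays, in 4 rows per probe set (tTA + Doxy, tTA, FVBN + Doxy, FVBN control), with the group mean as a tick. No probe set separates the tTA arrays of a treatment from the FVBN arrays of the same treatment, the Tpm4 points spread widest, and the Tnni3 points lie closest together (within-group SD 0.049 against 0.16 for Tpm4). Quantile normalisation left Tnni3 with 7 different values on the 19 arrays.

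Spread within groups differed among the members. The pooled within-group SD on the log2 scale was 0.22 for Tpm2 100605_at and 0.16 for Tpm4, against a median of 0.085 over all tested probe sets, and 0.12 for Tnnt1 161361_s_at. It was smallest for Tnni3 at 0.049 and Tnnc1 at 0.071. Quantile normalisation left these with 7 and 9 different values on 19 arrays, so their SDs depend on that step.

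In all, for tTA + Doxy against FVBN + Doxy, 1 of 11 tested member probe sets rose, 1 fell and 9 did not pass, where 5.86% of all 7453 tested probe sets were called (4.27% higher and 1.6% lower). For tTA against FVBN control the counts were again 1, 1 and 9, where 2.79% of all were called (0.966% higher and 1.82% lower). The same 2 probe sets, Tpm2 100605_at and Tnnt1 161361_s_at, made up both counts, and both were also those whose groups did not overlap, which held for 9.71% of all tested probe sets under Doxy and 12.7% without. The median log2 difference of the 11 was -0.06 under Doxy and -0.07 without, beside -0.01 and 0.01 over all tested probe sets. The 437 calls over all probe sets under Doxy were 241 without FVBN + Doxy array 8341, 271 without array 8337, 267 without tTA + Doxy array 7488 and 271 without array 7485. The 208 calls without Doxy numbered 54 once FVBN control array 8177 was left out, 63 once 8182 was, and 27 when the actin ratio entered the fit, so the shares beside the members' counts are unstable.

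**Figure D3:**
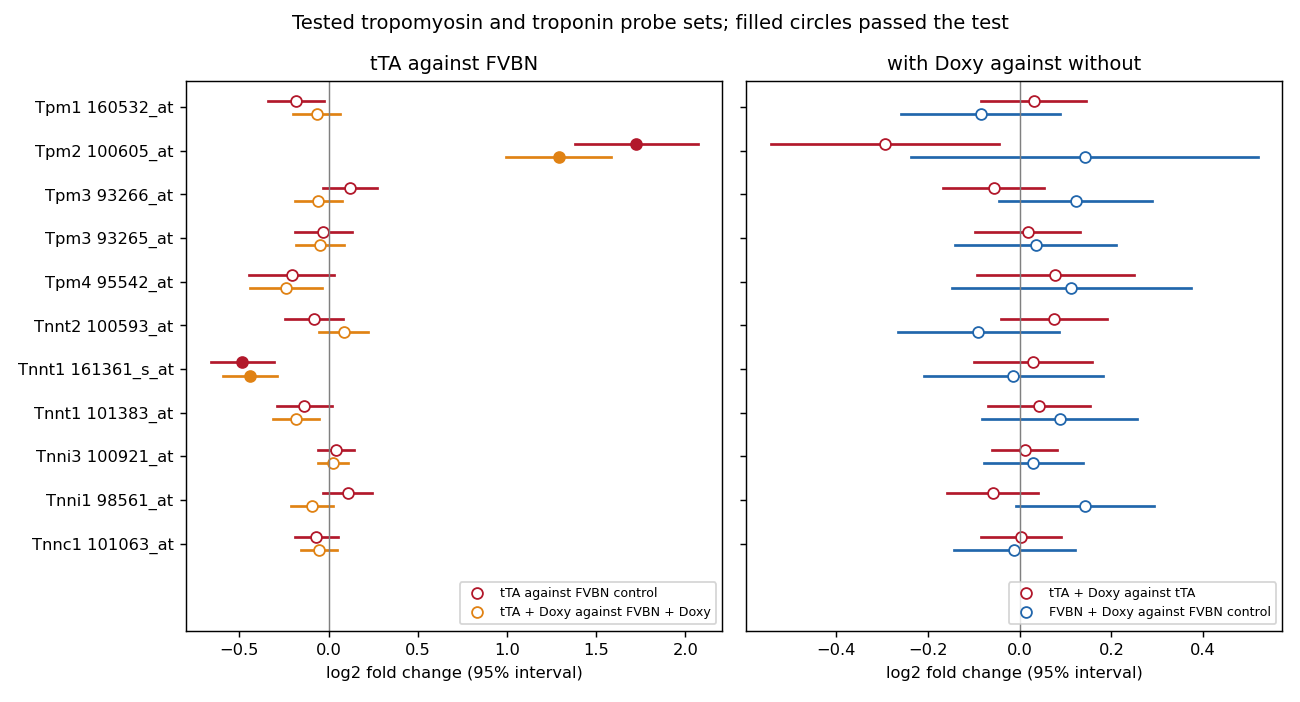
Log2 fold change with its 95% interval from the limma fit for the 11 tested probe sets, tTA against FVBN with and without Doxy on the left and Doxy against no Doxy in each genotype on the right (the horizontal scales differ). Filled circles passed at an adjusted p below 0.05: Tpm2 at 1.73 and 1.29 and Tnnt1 161361_s_at at -0.48 and -0.44 on the left, none on the right.

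Whether the skeletal or slow isoform changed relative to its cardiac counterpart was read on each array as a log2 difference between their brightest probe sets. Its size has no meaning as a ratio of transcripts, since probe sets differ in brightness, but its shift between groups shows unequal change. Tpm2 minus Tpm1 averaged 1.76 ± 0.15 in tTA + Doxy (SD, n = 5) and 2.09 ± 0.26 in tTA (n = 8), against 0.40 ± 0.31 in FVBN + Doxy (n = 4) and 0.18 ± 0.04 in FVBN control (n = 2). The mean of the shifts with and without Doxy was 1.63 (exact two-sided permutation test within Doxy strata, p = 0.000176, the smallest that 5670 permutations can give, adjusted p = 0.00106 over 6 tests). Tnnt1 minus Tnnt2 averaged -4.52 ± 0.14 in tTA + Doxy and -4.47 ± 0.16 in tTA, against -3.99 ± 0.29 in FVBN + Doxy and -4.07 ± 0.06 in FVBN control, a shift of -0.46 (exact permutation p = 0.000353, adjusted p = 0.00106). Tnni1 minus Tnni3 averaged -4.72 ± 0.10 in tTA + Doxy and -4.65 ± 0.10 in tTA, against -4.60 ± 0.07 in FVBN + Doxy and -4.71 ± 0.07 in FVBN control, a shift of -0.03 (exact permutation p = 0.633, adjusted p = 0.901). So, at these probe sets, Tpm2 rose relative to Tpm1, Tnnt1 fell relative to Tnnt2, and no shift passed for troponin I. How far the Tpm1 probe set, in the lower part of those tested, follows the alpha form was not tested. With the other Tnnt1 probe set the shift of Tnnt1 minus Tnnt2 was -0.16 (exact permutation adjusted p = 0.174). With the dimmer Tpm2 probe set, below the brightness filter, the shift of Tpm2 minus Tpm1 was 0.055 (exact permutation adjusted p = 0.901). The shifts that passed restate the changes of Tpm2 and Tnnt1 and are not independent of them.

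**Figure D4:**
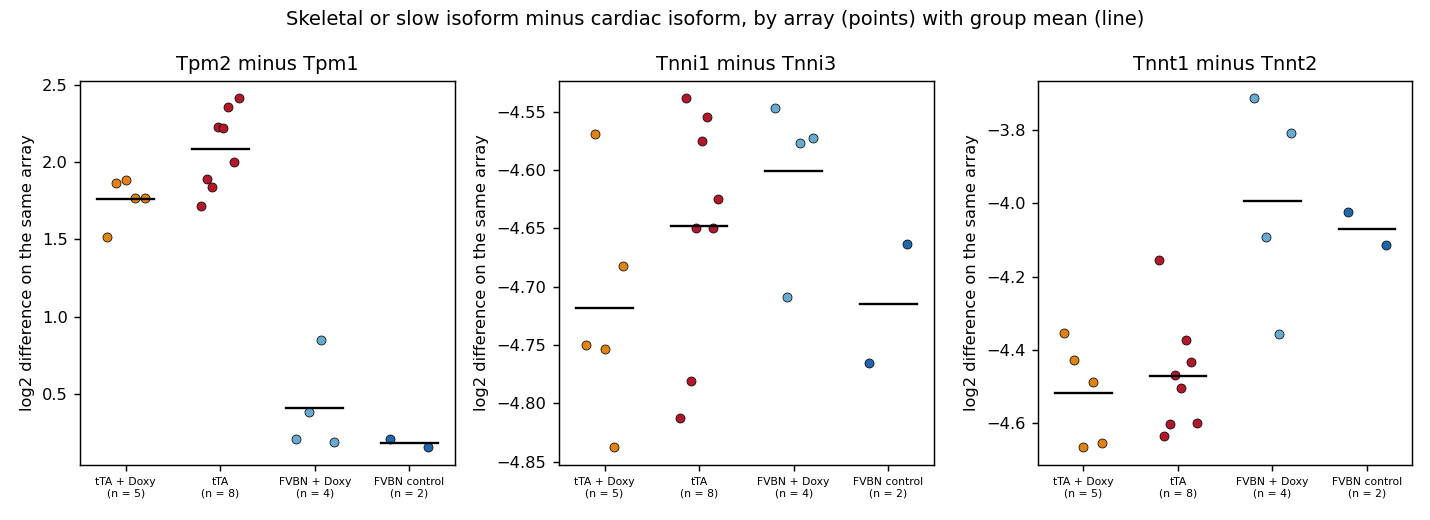
Log2 difference between the skeletal or slow isoform and its cardiac counterpart on each of the 19 arrays, by group, with the group mean as a line (vertical scales differ between panels). Tpm2 minus Tpm1 lies between 1.52 and 2.42 on tTA arrays and between 0.15 and 0.85 on FVBN arrays, Tnni1 minus Tnni3 overlaps in all groups, and Tnnt1 minus Tnnt2 lies between -4.66 and -4.15 on tTA arrays and between -4.36 and -3.71 on FVBN arrays.

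Doxy changed none of the members past the threshold. For tTA + Doxy against tTA, 0 of 11 tested member probe sets passed in limma, with 1 at an unadjusted p below 0.05, where 0.0671% of all tested probe sets were called (0.0403% higher and 0.0268% lower) and the groups did not overlap for 0 of the 11, against 0.389% of all. That 1 was Tpm2, which was 1.23-fold lower with Doxy (log2 difference -0.29, 95% interval -0.54 to -0.04, n = 5 and 8, limma adjusted p = 0.562). All 5 tTA + Doxy arrays lay below the tTA mean, but the groups overlapped, since tTA arrays 7288 and 7292 lay within the range of the tTA + Doxy arrays. For FVBN + Doxy against FVBN control, 0 of 11 passed, with 0 at an unadjusted p below 0.05, where 0.0403% of all were called (0.0268% higher and 0.0134% lower). Here the groups did not overlap for 1 probe set, that of Tpm1, as for 23.4% of all tested probe sets. Tpm2 stood at 0.14 (95% interval -0.24 to 0.52) and Tnnt1 161361_s_at at -0.01 (-0.21 to 0.18).

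Whether Doxy acted differently in the 2 genotypes was tested as the difference between its effects in tTA and in FVBN. Of the 11 probe sets 0 passed in limma, with 1 at an unadjusted p below 0.05, where 0.0134% of all were called. It was -0.44 for Tpm2 (95% interval -0.89 to 0.02, limma adjusted p = 0.357), so the rise of Tpm2 in tTA hearts was not shown to differ with Doxy. The probe set below 0.05 before adjustment was that of Tnni1, with -0.06 in tTA and 0.14 in FVBN, a difference of -0.20 (-0.38 to -0.02, limma adjusted p = 0.306). The shift of Tpm2 minus Tpm1 with Doxy, averaged over both genotypes, was -0.05 (exact permutation p = 0.768, adjusted p = 0.901).

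The proteins that work with tropomyosin and troponin were read from 3 lists of sarcomere genes. Of 21 thin filament partners (actins, tropomodulins, capping proteins, cofilins and the fast skeletal troponin I and C genes), 11 were on the array and 10 tested. In both genotype comparisons 1 of the 10 rose and 9 did not pass: Acta1, the skeletal alpha-actin gene (0.80 ± 0.22 SE under Doxy, limma adjusted p = 0.0461, and 1.68 ± 0.26 without, adjusted p = 0.002). The list medians were -0.05 under Doxy and -0.00 without, beside -0.01 and 0.01 over all probe sets. Of the fast skeletal troponin genes, Tnni2 lay between 27.1 and 34.9, too dim to be tested. Tnnc2 lay between 60.8 and 71.8 and passed in neither comparison. Of 8 tested thick filament genes, 1 rose under Doxy, Mybpc3, the cardiac myosin binding protein (0.31 ± 0.05 SE, adjusted p = 0.00104), and 0 were called without Doxy. Of 10 tested Z-disc genes, Pdlim1, a PDZ-LIM protein of actin bundles, rose in both (0.51 ± 0.07 SE, adjusted p = 0.000262, and 0.55 ± 0.09, adjusted p = 0.000462), and Fhl2, a LIM protein of the sarcomere, fell under Doxy (-0.33 ± 0.07, adjusted p = 0.0101). Of 11 tested transcription factor genes known to act on sarcomere genes, among them Mef2a, Mef2c, Mef2d, Gata4, Gata6, Nkx2-5 and Tead1, 0 were called in limma in either genotype comparison, with list medians of -0.03 under Doxy and 0.03 without.

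Markers of other cell types were read beside Tpm2 and Tnnt1, since beta-tropomyosin is also a smooth and skeletal muscle protein and slow troponin T a skeletal muscle protein. Of 24 skeletal muscle markers, 22 were on the array and 12 tested, and 0 were called in limma in either genotype comparison (medians -0.06 under Doxy and 0.05 without). Their summed intensity was 2752 to 3067 in tTA + Doxy and 2697 to 3188 in tTA, against 2941 to 3152 in FVBN + Doxy and 2628 to 2893 in FVBN control. Of the defining markers, Mylpf, the fast skeletal myosin light chain, lay between 50.3 and 64.6 over the 19 arrays and Actn3, the fast fibre alpha-actinin, between 70.8 and 91.7. The fast myosin Myh4 lay between 134.9 and 192.3 and Pvalb, the calcium buffer parvalbumin, between 655.8 and 878.4. Mylpf, Actn3 and Myh4 are fast fibre genes, and slow skeletal muscle was not tested apart. The brightest of the list were Pvalb, Myl1 and Casq1 (means of 811.4, 520.5 and 462.3 in tTA), so the sum leans on them. Tnni2 and Tnnc2 also stand in the thin filament list.

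Of 11 tested smooth muscle markers, 2 rose under Doxy, Myl9 (0.53 ± 0.06 SE) and Smtn (0.26 ± 0.06), and Acta2 fell in both comparisons (-0.66 ± 0.17 under Doxy and -1.27 ± 0.20 without). Their summed intensity was 1486 to 1646 in tTA + Doxy and 1410 to 1576 in tTA, against 1546 to 1734 in FVBN + Doxy and 1635 to 1675 in FVBN control. Of the defining markers Tagln and Cnn1 were not called and Myh11 was too dim to be tested, and without Acta2 the ranges overlapped, 1266 to 1310 and 1241 to 1383 against 1237 to 1273 and 1199 to 1292. Of 7 tested atrial markers, Clu, the clusterin gene, rose in both comparisons and Stard10 rose without Doxy (0.31 ± 0.07). The atrial sum was 1614 to 1753 in tTA + Doxy and 1607 to 1811 in tTA, against 1266 to 1384 in FVBN + Doxy and 1204 to 1314 in FVBN control. Without Clu it was 867.4 to 922.8 and 871.6 to 1097.6, against 916.5 to 998.0 and 880.1 to 941.3, and the atrial genes Myl4 and Sln were not called. Acta2 and Clu were left out of these sums after their values were seen. Myl9 was also higher in tTA + Doxy than in tTA (0.29 ± 0.05 SE, limma adjusted p = 0.0139).

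Of 15 tested fibroblast markers 1 fell under Doxy, Fbln1 (-0.25 ± 0.07), and of 10 tested endothelial markers 1 fell without Doxy, Emcn (-0.28 ± 0.07), and 0 of 6 tested blood cell markers were called in limma in either genotype comparison. Blood cell markers summed to 2968 to 5919 in tTA + Doxy and 3052 to 5096 in tTA, against 5657 to 6189 in FVBN + Doxy and 5141 to 5625 in FVBN control. Endothelial markers summed to 2138 to 2335 in tTA + Doxy and 2249 to 2443 in tTA, against 2206 to 2608 in FVBN + Doxy and 2525 to 2575 in FVBN control. For both lists the tTA arrays thus lay below the FVBN control arrays, while the ranges overlapped under Doxy. Fibroblast markers summed to 5591 to 5906 in tTA + Doxy and 5308 to 6919 in tTA, against 5881 to 6228 in FVBN + Doxy and 6119 to 6195 in FVBN control. Of 12 ventricular cardiomyocyte markers, Ryr2, the calcium release channel, fell in both genotype comparisons (-0.58 ± 0.09 SE under Doxy and -0.82 ± 0.10 without), Ckmt2, a mitochondrial creatine kinase, fell under Doxy (-0.25 ± 0.06) and Mybpc3 rose as above. The cardiomyocyte sums overlapped, 34392 to 37445 in tTA + Doxy and 33447 to 37944 in tTA, against 35044 to 37147 in FVBN + Doxy and 34680 to 37747 in FVBN control. The part of these markers in the Tpm2 and Tnnt1 results was not tested.

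The genes whose pattern lay nearest to that of Tpm2 100605_at were found by the root mean square distance between log2 values over the 19 arrays, each probe set centred on its own mean. The 5 nearest were 2 probe sets of Clu (distances 0.337 and 0.393), then Acta1 (0.446), Lgals1, the galectin-1 gene (0.495), and Gnb3, a G protein beta subunit gene (0.4999). The median over all tested probe sets was 0.748, and the profile of Tpm2 itself had a root mean square size of 0.743. No other tropomyosin or troponin was among the 5. The measure favours probe sets with a large difference between genotypes, and nothing further is read from it.

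**Figure D5:**
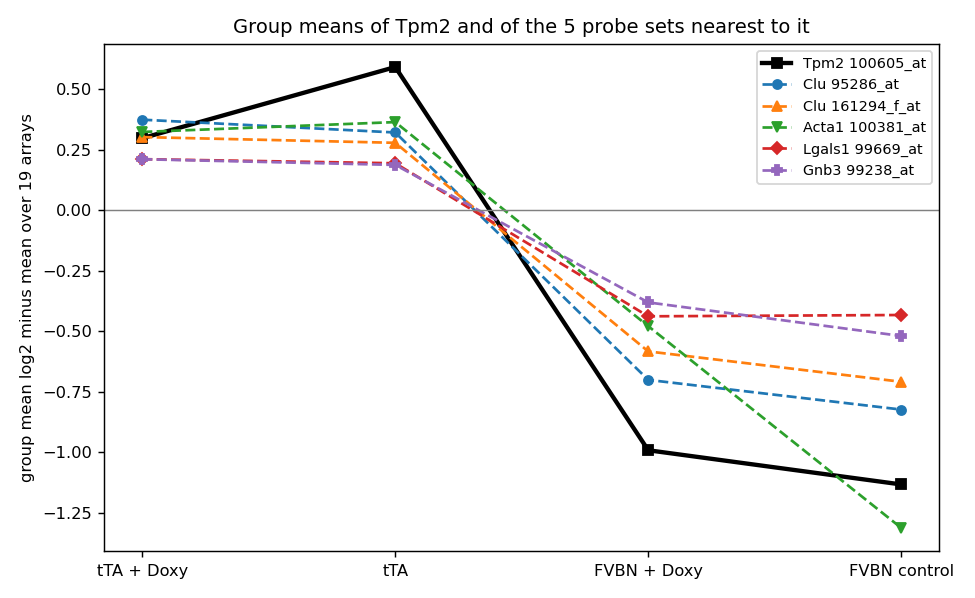
Group means of log2 intensity minus each probe set's mean over the 19 arrays, for Tpm2 100605_at (solid line) and the 5 tested probe sets nearest to it (dashed lines). Tpm2 stands at 0.30 in tTA + Doxy and 0.59 in tTA, against -0.99 in FVBN + Doxy and -1.13 in FVBN control, and the 5 others are all above 0 in both tTA groups and below 0 in both FVBN groups.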

How the data were processed

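Mouse ventricle RNA was measured on 1-colour Affymetrix arrays, per the labels. The authors deposited 1 table of probe set intensity values on a linear scale for 20 arrays, each value being 2 raised to a number with 4 decimals. The summary method, background correction, normalisation and detection calls: not given in the sources used here. Arrays were grouped by their titles. Probe sets were named from the array annotation and a RefSeq gene table (GRCm38.p6).

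The 19 arrays with a group were quantile normalised, raised to a floor at the 10th percentile (14.37) and put on the log2 scale in R 4.3.3. The brightest 60% of probe sets (7453, for 5658 genes) were fitted in limma 3.58.1 with 4 group means (eBayes with trend and robust settings). P-values were Benjamini-Hochberg adjusted over all tested probe sets, and a change was called below 0.05. Folds are on the log2 scale of these floored values. SDs are over arrays and depth here is set by the number of arrays. The fit was tested on simulated data. Named genes are all members, up to 4 called genes per list and comparison, and the 5 probe sets nearest to the member with the smallest adjusted p. Members and lists were chosen with earlier results of these data known. Plots used Python 3.11.15 and matplotlib 3.10.9.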

Additional observations from a re-analysis of the deposited data

Results flagged for a closer look

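Among the tested member probe sets and isoform differences, 42 groups of 4 or more arrays were searched for an array far from the others of its group, and 3 were found, where chance alone flags about 1 in 20 groups. Tnnt1 161361_s_at read log2 7.279 on tTA array 7288, against 7.104 to 7.157 on the other 7 tTA arrays, and still lay below every FVBN array. Tpm3 93265_at read 7.228 on tTA + Doxy array 7424, against 7.045 to 7.097 on the others. Tpm1 160532_at read 6.222 on FVBN + Doxy array 8341, against 6.276 to 6.279 on the others, where the gap is small and the other values nearly coincide.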

How the results depend on the processing

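No paired analysis was possible because no number is shared between groups. Both Tpm2 calls and the Tnnt1 call under Doxy held in all alternatives: other scalings (equal medians, none), other floors (5th and 25th percentile), other filters (every probe set, the brightest 40%), array weights, no intensity trend, only the arrays compared, the actin ratio in the fit, without tTA arrays 9310 and 9322, and each of 19 arrays left out. The other floors left the calls over all probe sets at 437 under Doxy and 208 without, as in the main fit, so they put no call to the test. Leaving out an array of a group outside a comparison acts on it only through the normalisation, the filter and the shared spread. Such a refit is a weak test of that call. The log2 fold change of Tpm2 without Doxy ranged from 1.69 to 1.83. The number of member probe sets called for tTA against FVBN control was 1 with the actin ratio in the fit, and 1 to 2 with each array left out, for the Tnnt1 probe set given above. Of 51 member tests that did not pass, 0 passed under any alternative, while their sign changed in 44 of 1514 refits, those with the other floors included. The second brightest probe set gave -0.161 for Tnnt1 minus Tnnt2 by genotype (exact permutation adjusted p = 0.174). For Tpm2 minus Tpm1 it gave 0.055 (exact permutation adjusted p = 0.901), so the shift was not seen with the dimmer Tpm2 probe set. That probe set lies below the brightness filter, but 0 of its 19 values were at the floor. Why it differs from the brighter Tpm2 probe set was not tested. Calls over all probe sets under Doxy, 437 as reported, were 703 with array weights and 282 with no filter on dim probe sets. The other 4 genes of the isoform pairs had 1 probe set each. Quantile normalisation compresses the brightest probe sets, so small changes of Tnni3, Tnnc1 and Tnnt2 are read less finely than others, and the FVBN control group of 2 arrays limits the comparisons that use it.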

Other observations

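The array without a group, normalised together with the others, read 87.7 for Tpm2 100605_at, where the tTA arrays lay between 237.3 and 368.9, the tTA + Doxy arrays between 235.8 and 265.6 and the FVBN arrays between 84.7 and 139.5. It read 225.2 for Tnnt1 161361_s_at, where the tTA arrays lay between 137.5 and 155.3, the tTA + Doxy arrays between 132.5 and 157.4 and the FVBN arrays between 159.8 and 233.8. For Tnnt1 101383_at it read 108.8, and the FVBN arrays lay between 98.6 and 117.9. For Tpm4 it read 347.2, below the lowest FVBN value of 397.0. Its title names tTA but neither a number nor a treatment, and no group is inferred from these values.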
